A study of Mus musculus with 5 samples.

Results

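The 35 genes described here are interferon-stimulated antiviral genes of the mouse, taken as a fixed list of names from sensors of foreign RNA to antiviral GTPases, and all 35 were found among 22208 protein-coding genes of the annotation. The values are Runx3 peaks in D1 cells, from chromatin immunoprecipitation and sequencing (ChIP-seq). D1 is a dendritic cell line of splenic origin, and Runx3 is a transcription factor of the RUNX family. The series holds 3 libraries precipitated with rabbit antibodies against mouse Runx3 (Runx3 IP) and 2 in which serum of non-immunised rabbits (NIS IP) took the place of the antibody. All were cultured D1 cells of 1 line fixed in 1% formaldehyde, with no genotype or treatment named in the labels. The authors deposited 1 list of 13014 peaks that sets Runx3 IP against NIS IP. A gene was called bound when a peak summit lay in its domain, from 5 kb upstream to 1 kb downstream of its outermost transcription start, extended both ways up to 50 kb or to the next gene's 5 kb and 1 kb stretch. ChIP measures DNA occupancy, so dendritic cell markers could not be checked, and no value below is an expression level. No values per library were used, so no test between libraries was possible, and all intervals cover counting error only.

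Interferons are cytokines that infected and sensing cells release, and their receptors act through Janus kinases and STAT proteins. Type I interferon assembles STAT proteins and IRF9 into a complex that binds the interferon-stimulated response element in the promoters of genes such as those listed here, whose products detect viral nucleic acid, degrade it, stop its translation or block the entry and release of virus. STAT dimers also bind a palindromic STAT element of their own. RUNX proteins bind a short core, TGTGGT or TGCGGT, and dendritic cells both make interferons and respond to them.

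Runx3 peaks lay in the domains of 19 of the 35 genes, or 54.3% (95% Wilson interval 38.2 to 69.5), while 33.7% of all 22208 genes were bound. Domains overlap between neighbours, so peaks were counted once, which gave 33 distinct peaks. Of these, 7 lay in the domains of 2 listed genes and 13 also in the domain of a gene outside the list. With the starts of every coding transcript counted, the summit was nearest to the start of a listed gene for 22 of the 33. By this count 14 of the 19 bound genes had such a peak of their own. The other bound genes, Zbp1, Oas2, Irgm1, Parp14 and Sp100, were bound only through peaks nearer to a start of another gene. With outermost starts alone the counts were 24 peaks and 15 genes, and Irgm1 kept a peak of its own. Domain length was no larger than usual, with a median of 54.6 kb against 62.8 kb over all genes, but bound members had longer domains (median 66.6 kb) than those without a peak (38.2 kb). Per Mb of the listed genes' domains there were 18 peaks (95% exact Poisson interval 12.4 to 25.2), against 9.15 over all domains. These intervals take no account of peaks that are shared between genes or clustered along the genome.

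The sequences beneath the peaks are shown first, because the RUNX core was the most frequent of the motifs searched. All are mm9 sequence read 5′ to 3′ on the strand given in brackets, which is that of the gene. Where Ifitm3 and Sp110, on the minus strand, share a peak with Ifitm1 and Sp100, the strand is that of Ifitm1 and Sp100. Motif letters stand in capitals: TGTGGT or TGCGGT, or their complements ACCACA and ACCGCA, for the RUNX core, and GAAANNGAAA or its complement for the response element, with N any base. The strongest peak of the genes with the highest folds gave the first set, centred on the core nearest to the summit, or on the summit itself where there was none.
Oas3 and Oas2 (chr5:121225821-121225880, minus strand): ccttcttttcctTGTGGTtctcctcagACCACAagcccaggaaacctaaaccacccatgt
Ifitm1 and Ifitm3 (chr7:148183877-148183936, plus strand): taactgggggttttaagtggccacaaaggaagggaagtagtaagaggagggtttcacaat
Usp18 (chr6:121165120-121165179, plus strand): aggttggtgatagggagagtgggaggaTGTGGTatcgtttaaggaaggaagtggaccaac
Zbp1 (chr2:173089202-173089261, minus strand): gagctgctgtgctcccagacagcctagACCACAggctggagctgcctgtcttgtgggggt
Isg20 (chr7:86056437-86056496, plus strand): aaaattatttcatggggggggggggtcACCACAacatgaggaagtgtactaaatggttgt
Ddx58 (chr4:40191308-40191367, minus strand): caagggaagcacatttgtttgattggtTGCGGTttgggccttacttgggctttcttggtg
Sp100 and Sp110 (chr1:87501056-87501115, plus strand): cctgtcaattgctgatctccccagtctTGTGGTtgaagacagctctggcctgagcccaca
Parp14 (chr16:35903273-35903332, minus strand): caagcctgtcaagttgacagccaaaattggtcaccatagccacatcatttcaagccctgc
The Oas3 window held a pair of cores on opposite strands, and the Ifitm1 and Parp14 windows held none. Of the 33 peaks, 23 had a core within 100 bp of the summit, or 69.7% (52.7 to 82.6), while 64.2% of all 13014 peaks had one. In windows of the same width placed 1 kb upstream and 1 kb downstream of the 33 summits the shares were 24.2% and 21.2%, and over all peaks they were 17.6% and 16.9%. The core lay at a median of 13.5 bp from the summit in the 23 peaks, against 14.5 bp over all peaks that had one. The shares at the listed genes and over all peaks lay within counting error of each other.

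The second set comes from peaks at the genes' own promoters, and was chosen after the values were seen.
Ddx58 promoter (chr4:40186924-40186959, minus strand): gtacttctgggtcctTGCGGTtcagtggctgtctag
Samhd1 promoter (chr2:156961085-156961120, minus strand): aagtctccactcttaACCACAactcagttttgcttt
Sp110 promoter (chr1:87495436-87495471, minus strand): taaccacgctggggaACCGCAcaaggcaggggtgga
Ifi35 promoter (chr11:101309625-101309660, plus strand): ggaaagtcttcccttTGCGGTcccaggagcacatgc
Usp18 promoter (chr6:121195826-121195889, plus strand): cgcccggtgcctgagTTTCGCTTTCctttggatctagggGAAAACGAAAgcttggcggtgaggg
Ifih1 first exon (chr2:62484261-62484290, minus strand): gaagagaatcGAAACAGAAAccgatctgtg
Within 100 bp of the summit, the promoter peaks of Ddx58, Samhd1, Sp110 and Ifi35 had a RUNX core, those of Usp18 and Ifih1 had response elements without a core, and that of Ifitm1 had neither motif. The Usp18 elements lay inside the called peak, while the Ifih1 element ran past its edge.

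**Figure D1:**
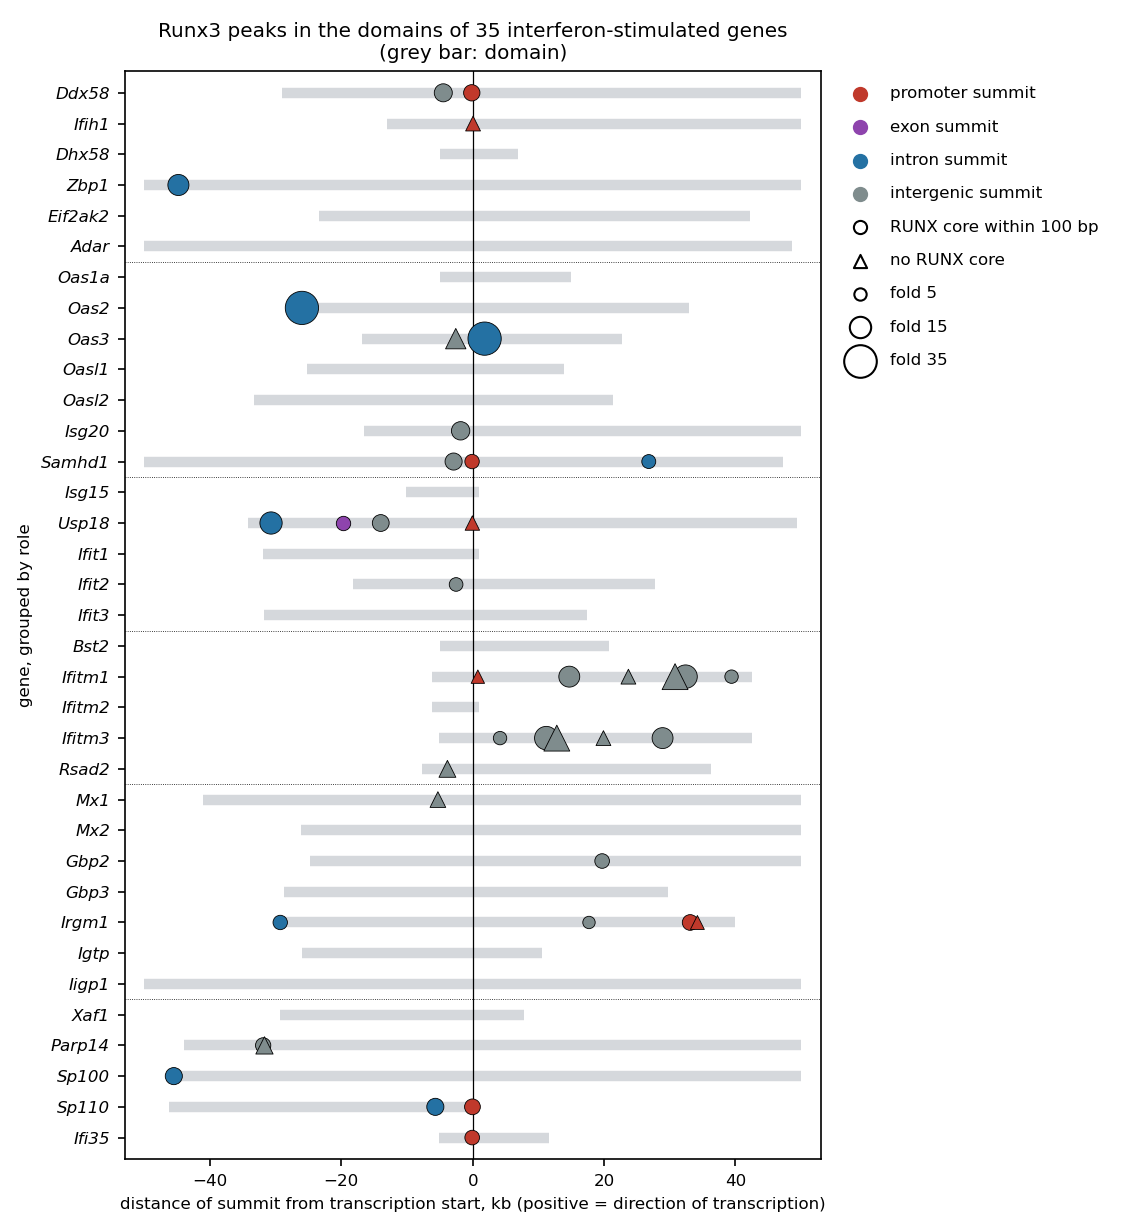
Distance of each peak summit from the gene's transcription start in kb (horizontal axis, positive in the direction of transcription) for the 35 genes in order of role, with the domain as a grey bar, the fold as the area of the symbol, the place of the summit as its colour and its shape showing whether a RUNX core lay within 100 bp. The fold of 36.4 near the start of Oas3 and the row of peaks between Ifitm1 and Ifitm3 stand out, and 16 genes have no symbol.

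For every peak the height is the number of Runx3 fragments that cover the summit, and the fold is the authors' ratio of scaled height plus 1 to the NIS background plus 1. The background is in the same scaled units, in which a Runx3 fragment counts 0.569 and the genome averages 0.315. Distances are given from the gene's outermost start, negative upstream. Over the 33 peaks the median height was 20.0 fragments, with a range from 13 to 91, and the median over all peaks was 19.0. The median fold was 8.12 in both sets. A fold of 10 or more was reached by 9 of the 33 peaks, and by 28.7% of all peaks. The NIS background was 1 or more at 9 of the 33 peaks, and at 17.1% of all peaks.

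The share to set beside the count of each role is the 33.7% of all genes, and differences between these small groups were not tested. Among the sensors of RNA and DNA, 3 of 6 genes were bound. Ddx58 encodes RIG-I, the helicase that recognises RNA with triphosphate ends. It had 2 peaks, both nearest to its own start. The higher, at −4.48 kb (chr4:40191253-40191387), had 23 fragments (95% exact Poisson interval 14.6 to 34.5), an NIS background of 0.315 and a fold of 10.7, and its core lay 0.5 bp from the summit. The promoter peak at −0.142 kb had 21 fragments (13.0 to 32.1) and a fold of 8.78, so the heights of this pair lay within counting error of each other. Ifih1 encodes MDA5, the helicase for long double-stranded RNA. Its only peak lay in the untranslated first exon at 0.052 kb (chr2:62484152-62484273), with 15 fragments (8.4 to 24.7) and a fold of 7.25. A response element lay within 100 bp of the summit, across the edge of the called interval, and no RUNX core did. Zbp1 encodes a sensor of Z-form nucleic acid. The peak in its domain lay at −44.8 kb inside an intron of Pmepa1, a negative regulator of TGF-β signalling, and 12427 bp from a Pmepa1 start, with 32 fragments (21.9 to 45.2) and a fold of 14.6. Dhx58, which encodes the regulatory helicase LGP2, Eif2ak2, the kinase PKR that stops translation on double-stranded RNA, and Adar, an RNA-editing deaminase, had no peak.

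Of the 2′-5′ oligoadenylate synthetase (OAS) family and the nucleases, 4 of 7 genes were bound. OAS enzymes respond to double-stranded RNA by making the oligoadenylates that activate RNase L. The strongest peak of all 33 lay in an intron of Oas3 at 1.81 kb (chr5:121225672-121226017). It reached 91 fragments (73.3 to 112.0) over a background of 0.452, with a fold of 36.4 and a −log10 q of 79.5, and its fold stood at percentile 99.9 of the whole list. Its interval did not overlap that of any other peak of these genes. The same peak was in the domain of Oas2, at −26.0 kb from that gene's start, and was the only peak of Oas2. Oas3 had another peak at −2.58 kb (chr5:121230133-121230356) with 32 fragments (21.9 to 45.2), a fold of 13.7 and no RUNX core. Oas1a, Oasl1 and Oasl2, further members of the family, had no peak. All 5 OAS genes of the list lie on chromosome 5 beyond 110 Mb, where the NIS background of peaks was higher (median 0.594, against 0.333 for other peaks). The Oas3 peaks had backgrounds of 0.452 and 0.405, between these medians. The part of the background in these peaks was not tested.

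Isg20 encodes a 3′ to 5′ exonuclease that degrades viral RNA. Its single peak lay at −1.84 kb (chr7:86056383-86056572) with 27 fragments (17.8 to 39.3), a fold of 11.1 and a core 1.5 bp from the summit. Samhd1 encodes an enzyme that depletes the nucleotides needed for viral DNA synthesis. Its 3 peaks lay at −2.91, −0.099 and 26.8 kb and had 32, 14 and 13 fragments and folds of 9.61, 6.82 and 6.39. All of them had a core within 13.5 bp of the summit. The highest stood on an NIS background of 1.0 and the promoter peak on 0.315, so the gap in height (32 against 14 fragments) was larger than the gap in fold.

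Of the ISG15 and IFIT group, 2 of 5 genes were bound. Usp18 encodes the protease that removes the ubiquitin-like protein ISG15 and also damps signalling from the type I interferon receptor. It had 4 peaks. The highest, at −30.7 kb in an intron of the tubulin gene Tuba8 (chr6:121165093-121165357), had 36 fragments (25.2 to 49.8) and a fold of 16.3. The next, at −14.0 kb, had 31 fragments and a fold of 9.32 over a background of 1.0. The promoter peak at −0.053 kb had 19 fragments (11.4 to 29.7), a background of 0.715 and a fold of 6.89. The weakest, at −19.7 kb, had 14 fragments (7.65 to 23.5) and a fold of 6.82 and lay in an untranslated exon of Tuba8. It was the only one of the 33 peaks with both a RUNX core and a response element, and its sequence is shown because the motifs share a base.
Usp18 distal peak (chr6:121176242-121176271, plus strand): cttctgtgggGAAAAGGAAACCACAgaaag
Here the response element runs from the first capital and the core ACCACA ends at the last. A further response element follows the core directly, and its first letters stand in lower case because the sequence shown ends inside it. Ifit2 belongs to the IFIT family of proteins that bind foreign RNA and block its translation. It had 1 peak at −2.53 kb with 13 fragments (6.92 to 22.2), a fold of 6.14 and a core 97.5 bp from the summit. Isg15 itself and the Ifit2 relatives Ifit1 and Ifit3 had no peak.

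Of the membrane proteins, 3 of 5 genes were bound. Ifitm1 and Ifitm3 encode interferon-induced transmembrane proteins that hinder fusion of viruses with the cell. They are transcribed towards each other, and the stretch between them held 5 peaks that lay in both domains. From the Ifitm1 side these stood at 14.7, 23.7, 30.8, 32.4 and 39.4 kb from its start. They had 49, 15, 51, 40 and 19 fragments, and folds of 14.4, 7.25, 22.1, 18.1 and 5.91. The peak of 22.1 (chr7:148183772-148184024) had no core, the one of 18.1 (chr7:148185245-148185623) had a core 5.5 bp from the summit, and both were nearer to Ifitm3. The heights of these neighbours, 51 (38 to 67.1) and 40 (28.6 to 54.5) fragments, lay within counting error of each other. The peak of 14.4 was nearest to Ifitm1 and had a core 1.5 bp from its summit, on an NIS background of 1.0. Ifitm1 also had a promoter peak at 0.781 kb, −26 bp from another of its transcription starts, with 19 fragments and a fold of 5.91 over a background of 1.0. Ifitm2, of the same family and gene cluster, had no peak in a domain of 7.24 kb. Rsad2 encodes viperin, which makes a chain-terminating nucleotide. Its peak at −3.85 kb (chr12:27145144-27145280) had 20 fragments (12.2 to 30.9) and a fold of 9.42, and no RUNX core within 100 bp of its summit. A pair of response elements lay within that distance, just outside the called interval.
Rsad2 beside the peak (chr12:27145118-27145147, minus strand): cagagtttacTTTCAGTTTCctagtacaaa
Rsad2 beside the peak (chr12:27145087-27145116, minus strand): atagcagaagTTTCTGTTTCcatccacaac
Bst2, the gene of tetherin, which holds budding virus at the cell surface, had no peak.

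**Figure D2:**
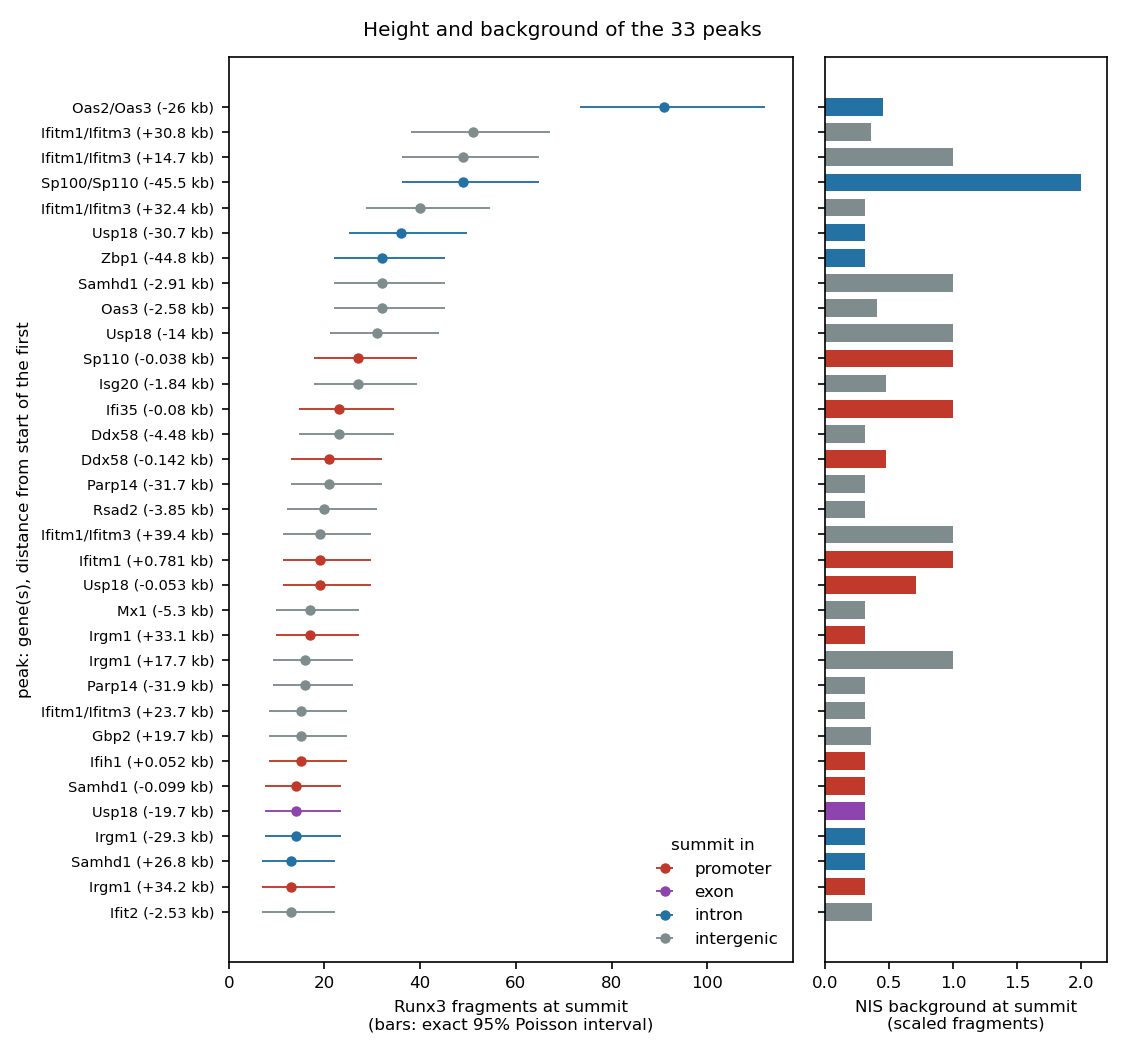
Runx3 fragments at the summit of each of the 33 peaks (left, with exact 95% Poisson intervals) and the NIS background there in scaled fragments (right, bars from 0), coloured by the place of the summit and labelled with the gene or genes and the distance from the start of the first. The interval of the Oas2 and Oas3 peak, 73.3 to 112.0 fragments, lies above all others, and the highest background, 2.0, belongs to the Sp100 and Sp110 peak.

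Of the GTPases, 3 of 7 genes were bound, by 6 peaks of 13 to 17 fragments, all below the median of the 33. Mx1 encodes a dynamin-like GTPase that traps viral nucleocapsids. Its peak at −5.3 kb had 17 fragments (9.9 to 27.2), a fold of 8.12 and no core. Gbp2 encodes a guanylate-binding protein that acts on the vacuoles of intracellular pathogens. Its peak lay at 19.7 kb, past the end of the gene, with 15 fragments (8.4 to 24.7) and a fold of 7.03. Irgm1 encodes a regulator of the immunity-related GTPases. Its domain held 4 peaks with 14, 16, 17 and 13 fragments, none of them nearest to Irgm1 with the starts of every transcript counted. They were a peak in an intron of the predicted gene Gm5431 at −29.3 kb (fold 6.82), an intergenic peak at 17.7 kb (5.05) and a pair at starts of Trim7, a ubiquitin ligase gene, at 33.1 and 34.2 kb (8.12 and 6.39). Mx2, Gbp3, Igtp and Iigp1 had no peak. Iigp1 had none although its domain had the full length of 100 kb, of which 62.1% was sequence that occurs once in the genome at the length of a tag.

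Of the nuclear and other genes, 4 of 5 were bound. Sp100 encodes a component of nuclear bodies that restrict viral DNA, and Sp110 is its relative. They share a peak in an intron of a further relative, Sp140 (chr1:87500761-87501184), at −45.5 kb from Sp100 and −5.69 kb from Sp110. It had 49 fragments (36.3 to 64.8) but a fold of 9.63, because the fold divides by a background that was 2.0 there, the highest of the 33. Its sequence has further copies in the assembly. It was also the only one of the 33 with the ETS-IRF composite GGAANNGAAA near its summit. Sp110 had a promoter peak at −0.038 kb with 27 fragments (17.8 to 39.3), a background of 1.0 and a fold of 8.18. Ifi35, which encodes an interferon-induced leucine-zipper protein, had a promoter peak at −0.08 kb with 23 fragments (14.6 to 34.5), a background of 1.0 and a fold of 7.05. Parp14 encodes a mono-ADP-ribosyltransferase. A pair of neighbouring peaks lay far upstream of it, at −31.9 and −31.7 kb, with 16 and 21 fragments and folds of 7.69 and 9.85, nearest to the start of the predicted gene Gm10237. Xaf1, which encodes an antagonist of the apoptosis inhibitor XIAP, had no peak.

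Promoters, from 1 kb upstream to 100 bp downstream of any coding transcript's start, held 9 of the 33 summits, or 27.3% (15.1 to 44.2), against 22.9% of all peaks. For 7 of the 9 the promoter was that of the listed gene. These were Ddx58, Ifih1, Samhd1, Usp18, Ifitm1, Sp110 and Ifi35, or 20.0% of the 35 (10 to 35.9), while 13.4% of all genes had a promoter peak. The interval includes the background share. Introns held 6 of the 33 summits, or 18.2% (8.61 to 34.4), against 37.2% over all peaks, and intergenic sequence held 17, or 51.5% (35.2 to 67.5), against 36.0%. The 33 peaks lie in gene domains by definition, while 10093 of all 13014 peaks lay in any gene's domain. Shares by place were not computed for those 10093 peaks alone. Whether this bears on the intron and intergenic shares was not tested. The 9 promoter peaks ran from a fold of 5.91 to 8.78 (median 7.05), and the other 24 from 5.05 to 36.4 (median 9.51). Over all peaks the same medians were 7.62 and 8.12. A core lay at 5 of the 9 promoter peaks and at 18 of the 24 others. Over all peaks the shares were 47.1% in promoters and 69.2% elsewhere.

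The response element that defines many of these genes was searched in their promoters, from 250 bases before to 50 after the outermost start. It was present in 20 of 35, or 57.1% (40.9 to 72.0), against 3.78% of the promoters of all genes. The RUNX core was present in 11 of 35, or 31.4% (18.6 to 48.0), against 21.5%. Of the 20 genes with a response element 3 had a promoter peak (Ddx58, Ifih1 and Usp18) and 17 did not. The share of all genes with a promoter peak was 13.4%. A peak anywhere in the domain was found for 9 of these 20, and for 10 of the 15 genes without the element at that start. Over all genes this share was 33.7%, and differences between these small groups were not tested. The split depends on the start used. Irgm1, counted among the 15, had an element in its RefSeq promoter (GRCm38), and Mx1, Mx2 and Parp14 had no match there. Some of the elements in promoters without a peak are shown for comparison with the Usp18 and Ifih1 elements, and were chosen after the values were seen.
Isg15 (chr4:155574985-155575004, minus strand): aaaagGAAACCGAAAcagaa
Ifit1 (chr19:34715289-34715308, plus strand): ctcagTTTCAGTTTCtcact
Bst2 (chr8:74061481-74061500, minus strand): aaaatGAAACTGAAAggctg
Igtp (chr11:58013019-58013038, plus strand): gaactGAAACTGAAAgctgt
Oas3 (chr5:121227729-121227748, minus strand): gaggaGAAAACGAAAgtgaa
These elements began at −72, −67, −159, −34 and −73 bp from the start, in the order shown. The Oas3 element lay between the Oas3 peaks at −2.58 and 1.81 kb, and neither peak reached it.

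**Figure D3:**
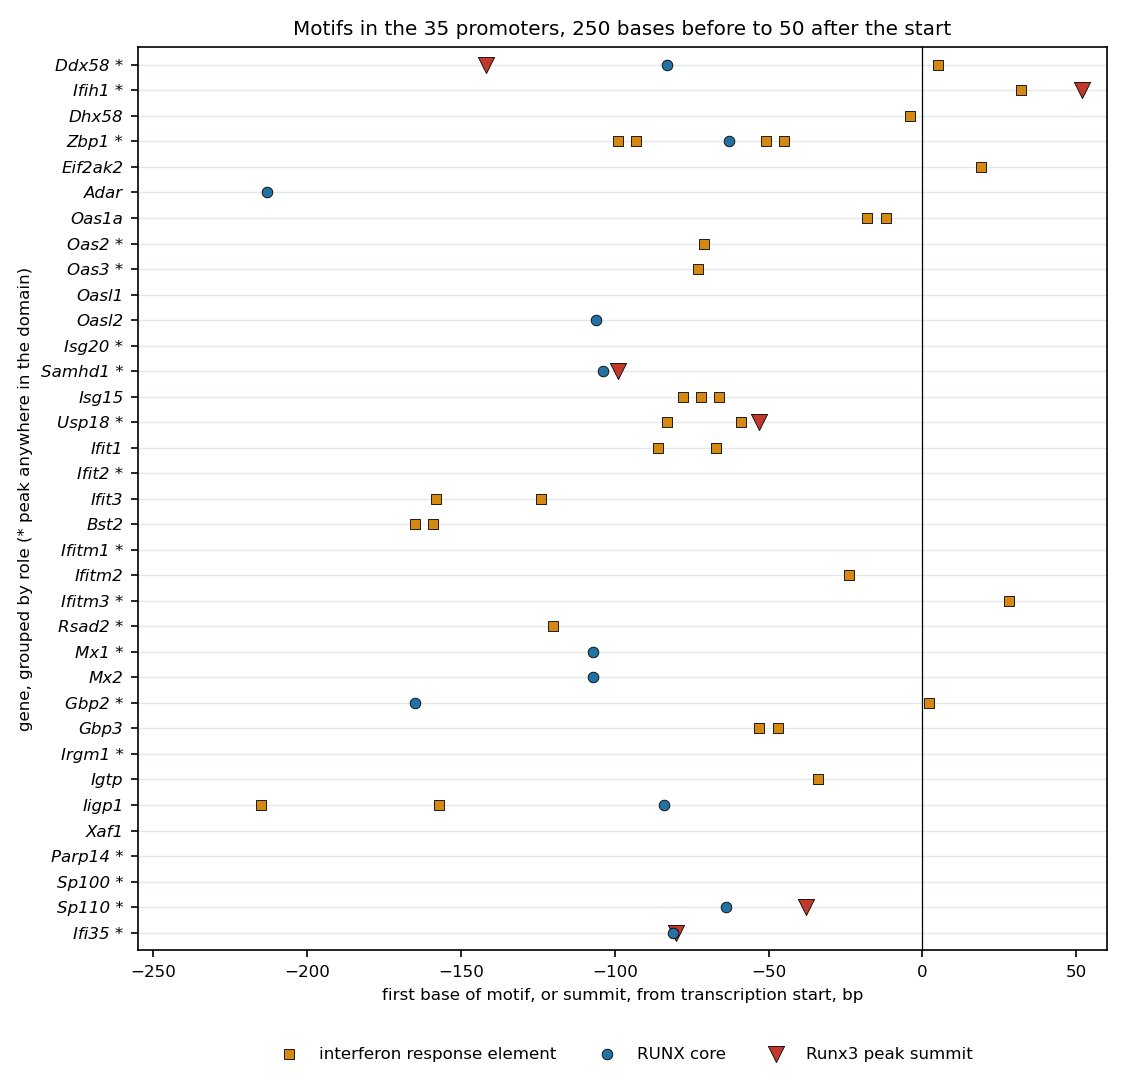
Position in bp from the transcription start (horizontal axis) of response elements (squares), RUNX cores (circles) and Runx3 peak summits (triangles) in and beside the promoters of the 35 genes, with motifs searched from 250 bases before to 50 after the start and the Ifih1 summit just past that window at 52 bp, and with an asterisk at genes that have a peak anywhere in the domain. Squares appear in 20 rows, and in 3 of these rows, Ddx58, Ifih1 and Usp18, a triangle appears as well.

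At the summits themselves, within 100 bp, the response element was present at 4 of the 33 peaks (Ifih1, Rsad2 and 2 of the Usp18 peaks), or 12.1% (4.82 to 27.3), against 3.08% of all peaks. In the windows 1 kb upstream and downstream the share was 3.03% on each side. The genes were chosen by name as targets of interferon, so this share is a description. The STAT element TTCNNNGAA was present at 4 of 33 (12.1%, against 9.06% of all peaks). The core GAGGAA of PU.1, an ETS factor of myeloid cells, was present at 15 of 33 (45.5%, 29.8 to 62.0, against 37.2%), and the AP-1 core TGANTCA at 4 of 33 (12.1%, against 12.2%). GGAANNGAAA was present at 1 of 33 (3.03%, 0.537 to 15.3), against 6.5% of all peaks. For these 4 motifs the interval at the listed genes included the share over all peaks. All motifs were searched on both strands. GAAANNGAAA and GGAANNGAAA differ in their first letters, so a match to one is never a match to the other at the same place.

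**Figure D4:**
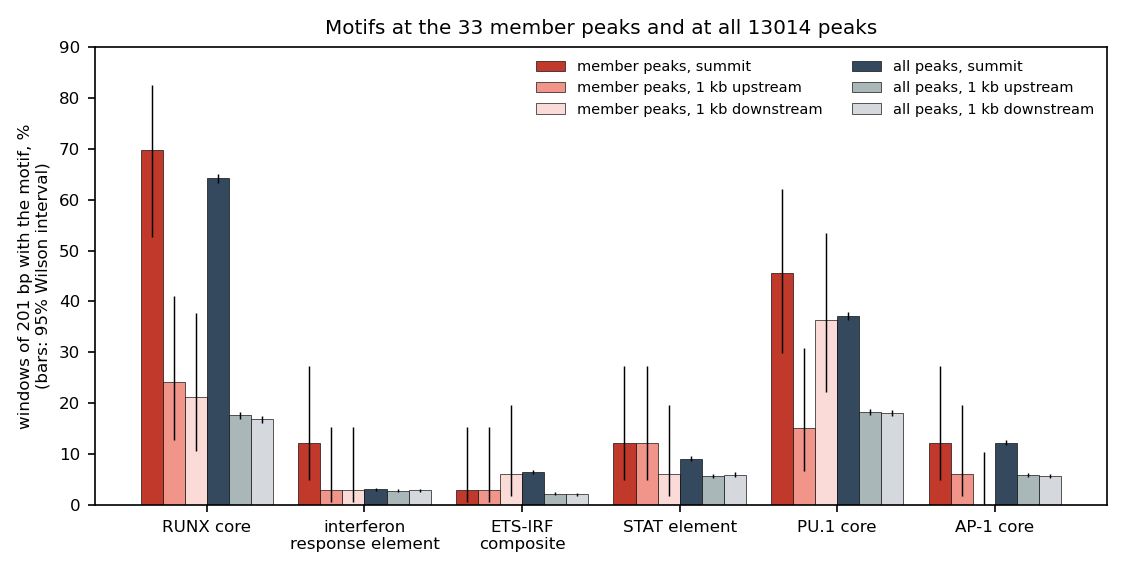
Share of windows of 201 bp that hold each motif (vertical axis, percent, with 95% Wilson intervals), at the 33 summits and at all 13014 summits, and in windows 1 kb upstream and downstream of each. The RUNX core stands at 69.7% and 64.2% at the summits and between 16.9% and 24.2% in the flanks, and the response element stands at 12.1% and 3.08% at the summits.

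Tags were aligned only where they matched 1 place in the genome, and interferon-stimulated genes often stand in arrays of similar copies, so the share of stretches of 38 bases, the tag length, that occur once was counted. In the 5 kb and 1 kb stretch around the start, its median was 91.9% over the 35 genes, against 96.7% over all genes. It was 94.4% for bound genes and 90.1% for those without a peak. The lowest shares were 12.4% for Sp110, 26.4% for Sp100, 44.1% for Oasl2, 60.5% for Ifit3 and 65.0% for Oas1a, and these 5 alone lay below the 10th percentile of all genes, 73.3%. Of them Oasl2, Ifit3 and Oas1a had no peak, and under unique alignment part of the sequence around their starts could take no tags. Of the other 13 genes without a peak all had at least 79.3% unique stretches around the start. At the peaks themselves, within 100 bp of the summit, every stretch was unique for 30 of the 33. The exceptions were the Irgm1 peak in Gm5431 (67.7%), the Sp110 promoter peak (51.8%) and the Sp140 intron peak shared by Sp100 and Sp110, where no stretch occurred once (0.0%) in the assembly. With its unplaced sequences left out, 23.2% of the stretches at that peak were unique. It was the only peak of Sp100, and its 49 fragments cannot be assigned to this copy from the list alone. How tags came to be placed there under unique alignment was not tested. For the 5 genes with the lowest shares, leaving out unplaced sequences gave 16.9% for Sp110, 26.9% for Sp100 and the same values for the others.

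**Figure D5:**
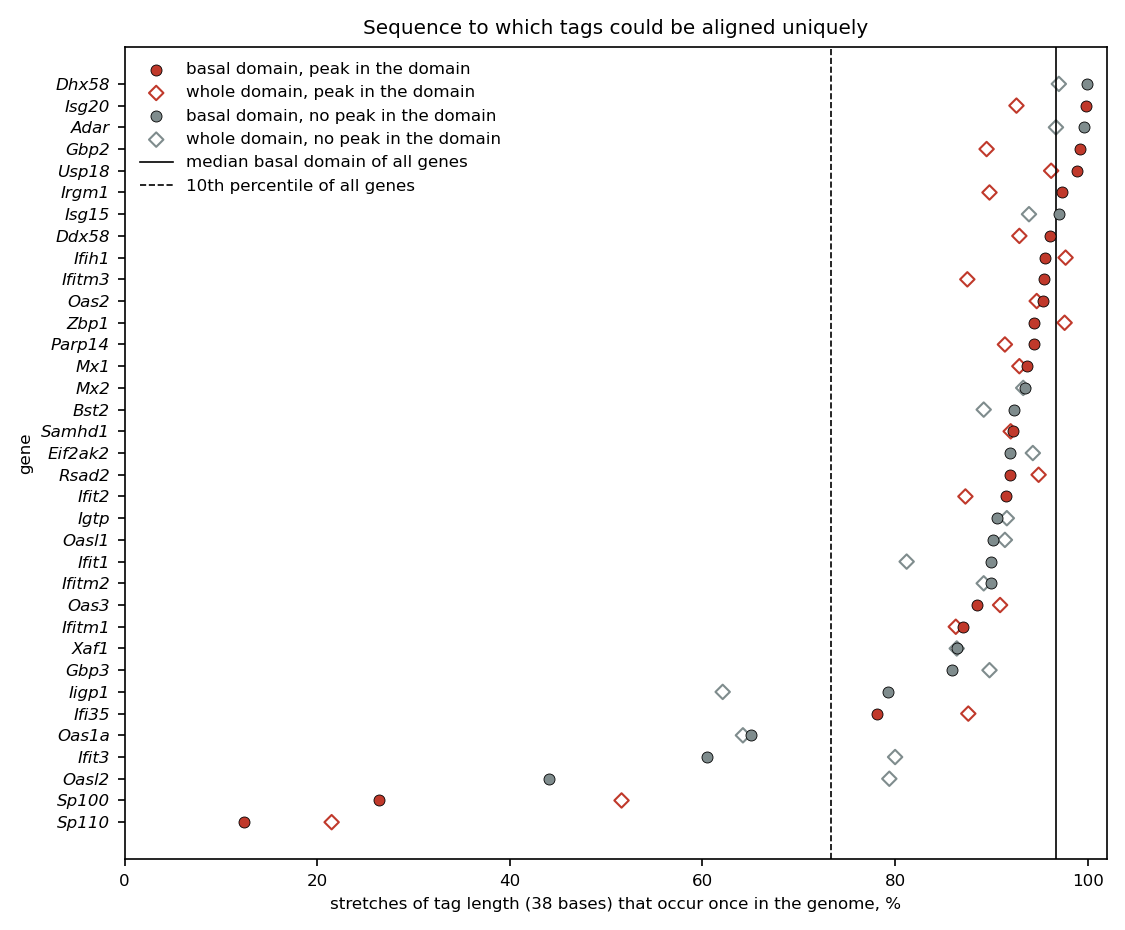
Share of stretches of 38 bases that occur once in the genome (horizontal axis, percent) around the start of each gene (filled circles) and over its whole domain (open diamonds), red for genes with a peak and grey for those without. The solid line marks the median over all genes, 96.7%, the dashed line their 10th percentile, 73.3%, and 5 filled circles lie to the left of the dashed line.

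For comparison, the pathway that leads to these genes was counted in the same way. Of 23 genes of interferon signalling (receptors, kinases, STAT and IRF factors, SOCS inhibitors and adaptors) 21 were bound, or 91.3% (73.2 to 97.6), and 11 had a promoter peak. Over all genes 33.7% were bound and 13.4% had a promoter peak. High folds stood at Ifnar2, a chain of the type I receptor (25.9, at −17.4 kb), and Irf5, an interferon regulatory factor (21.1, at −9.28 kb). Ifngr2, a chain of the interferon gamma receptor, and Jak1, a kinase of these receptors, both had 14.6, in introns of their own genes. Mavs, the adaptor of RIG-I and MDA5, and the kinase gene Ikbke had no peak. The interval for this pathway lay above that of the antiviral genes, at 91.3% (73.2 to 97.6) against 54.3% (38.2 to 69.5). Its domains were longer, with a median of 73.4 kb, against 54.6 kb for the antiviral genes and 62.8 kb over all genes. Of 36 further interferon-stimulated genes found in the annotation, 17 were bound (47.2%, 32.0 to 63.0), an interval that includes both the share of the 35 and the 33.7% of all genes. The highest folds among them were 15.9 at Trim25, a ubiquitin ligase that activates RIG-I, 13.7 at Irgm2, an immunity-related GTPase, 12.5 at Herc6, the mouse ligase for ISG15, and 12 in the domain of Trex1, an exonuclease that clears DNA, in an intron of Shisa5.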

How the data were processed

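D1 chromatin was analysed from 3 Runx3 IP and 2 NIS IP libraries, grouped by GEO's labels. Per the submitters' notes, base calls came from CASAVA 1.8, reads were aligned with Bowtie 1 to mm9, uniquely according to the study's methods, and peaks were called with MACS2 2.0.10. Per the file headers, 12078978 Runx3 and 7110481 NIS tags of 38 bp entered, 8689867 and 4946605 remained once the authors kept 1 per position, fragments were 119 bp and the q cutoff was 0.05. Which libraries each alignment pooled is not stated, and the labels speak of fewer replicates than there are Runx3 libraries.

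The deposited signal column is the pileup at the summit, scaled to the NIS depth, and whole fragments were recovered from it in steps of 0.569 (largest deviation 0.0087 of a fragment). The deposited fold is the ratio of pileup plus 1 to background plus 1, which gave the NIS background. The deposited −log10 q-value column had an unreadable header cell and was identified by position, and a −log10 p-value column was not used. Removing duplicate tags limits the height of a summit.

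Genes were GENCODE vM1 protein-coding models on chromosomes 1 to 19 and X (22350 models, merged by name to 22208). Sequence was NCBIM37 (mm9). No test was run. Shares carry 95% Wilson and counts exact Poisson intervals. Every listed gene is named, in order of role, along with host or neighbouring genes of its peaks and the 4 highest folds of each comparison list (5 where tied), except 1 gene that is not reported here. Uniqueness was counted every base around listed genes' starts, every 10 bp over their domains and every 200 bp around the starts of all genes, without mismatches. The genes and lists were chosen with earlier results of these data known. Domains and motif search were tested on simulated data. Alternatives were other domains, thresholds, windows, cores and promoter sets. Scripts ran in Python 3.11.15 (pandas 2.3.3, NumPy 2.4.6, SciPy 1.17.1), with figures drawn by matplotlib 3.10.9.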

Additional observations from a re-analysis of the deposited data

How the results depend on the processing

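The number of bound genes was 19 of 35 in the report and lay between 13 and 19 under all alternatives for the domain, the gene models, the owner of a peak, the overlap, the RUNX core and a −log10 q of 5 or more. Under these alternatives the share of all genes that were bound moved as well, from 22.5% to 43.0%. With only peaks that had a RUNX core there were 16 bound genes, against 24.9% of all genes. With gene models of every biotype there were 18, against 26.4%. With the nearest outermost start there were 15, against 27.7%, and with the starts of every transcript 17, against 33.6%. The number of bound genes was 8 with peaks of fold 10 or more, against 13.1% of all genes, which left 9 distinct peaks. With an extension of 10 kb there were 17 distinct peaks and 13 bound genes, against 22.5% of all genes, and Zbp1, Oas2, Gbp2, Irgm1, Parp14 and Sp100 had none. With 1 Mb there were 19 bound genes and 35 distinct peaks, against 43.0% of all genes. That background lies inside the interval for 19 of 35, 54.3% (38.2 to 69.5). No interval was computed for the other counts of bound genes. Counting only peaks whose nearest start of any transcript was that of a listed gene, an alternative added after the data were seen, left 14, against 25.9%. Other settings gave 24 to 35 distinct peaks. Without the 5 genes on distal chromosome 5 the counts were 17 of 30 genes, against 33.7% of all genes, and 31 peaks. TGTGGT alone was present at 51.5% of the peaks, against 52.6% of all peaks. The median ratio of height to background without the added 1 was 25.3, against 27.1 over all peaks. Of the added alternatives, 27 genes matched RefSeq promoters (GRCm38), of which 59.3% held the response element, against 3.99% of all, and promoters of every transcript gave 27.3%, against 24.6% of all peaks. The lowest of the 33 peaks had 13 fragments and the lowest of all peaks 8, and binding too weak to be called is not excluded for genes without a peak. No values per library were used, so leaving out each library was not run. No paired analysis was possible because the peak list holds no values per library.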

Other observations

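Some relatives of listed genes without a peak were bound and some were not. These were picked out after the values were seen, from the list of 36 further interferon-stimulated genes. Oas1a had no peak, while an intron of Oas1h held a peak of fold 9.32 in the domain of Oas1g, and Oas1c had one of 8.12 at −18.8 kb. Gbp3 had none, while Gbp5 had a peak of 11.1 at −3.3 kb, Gbp4 one of 6.39 in its own intron, and Gbp7 one of 5.09 in its promoter. Igtp had none, while its relative Irgm2 had a peak of 13.7 at 16.8 kb. Oas1b, Gbp6 and Tgtp1, an immunity-related GTPase gene, had no peak. Whether the relatives differ beyond counting error was not tested.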
